A study of Mus musculus with 6 samples.

Results

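The genes described here are 10 genes of the NF-kB pathway: the subunit genes Rela, Relb, Nfkb1 and Nfkb2, the inhibitor and cofactor genes Nfkbia, Nfkbiz and Bcl3, the kinase gene Ikbkb, and Tnip1 and Birc3, which encode ubiquitin-binding and ubiquitin-attaching regulators of the signal. They were taken by name. A genomic region of the deposited list was assigned to a gene when its centre lay inside the gene span or within 100 kb of it. By this rule 14 of the 6502 regions of the list fell at 8 of the 10 genes, and Rela and Nfkb2 had none; of all protein-coding genes, 42.7% had a region by the same rule.

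ATAC-seq marks open chromatin by letting a transposase cut accessible DNA. Here it profiled basal stem cells of the mouse prostate, sorted for Sca-1 and CD49f after cells carrying CD45 (leukocytes) or CD31 (endothelium) had been gated out. Of the 6 libraries, 3 came from inflamed prostates (labelled genotype POET3, a line that expresses ovalbumin in the prostate, taken 7 days after transfer of activated splenocytes from OT-1 mice) and 3 from naive prostates (labelled genotype WT, treatment control). By these labels genotype and inflammation cannot be told apart, while the protocol text speaks of POET3 mice for both groups. Age, and whether animals were pooled, is not given in the sources used here.

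The list holds chromosome, start and end only. It was read as a list of regions that differ between inflamed and naive cells from its deposited name and from the tools named with it, and neither says in which group a region was more open. Nothing below is therefore a rise or a fall. No value per library exists in it, so no replicate error or test between the groups could be given, the sorted cell type could not be checked against markers, and the depth of the libraries is unknown. Regions were 143 or 451 bases wide, apart from 1 region elsewhere in the list, and what the widths stand for is not given in the sources used here. Positions are on mm10, counted from 1.

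NF-kB is a family of dimeric transcription factors held in the cytoplasm by IkB proteins. Cytokines such as IL-1 and TNF activate the IkB kinase, which marks IkB for destruction and frees the dimers to enter the nucleus. Among the first genes they switch on in many cell types are those of their own inhibitors, which closes a feedback loop. In epithelia the pathway drives the production of cytokines and chemokines during inflammation.

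Sequence motifs bound by NF-kB are shown first, since the genes of the loop are known for them. A promoter window here runs from 250 bases before to 50 bases after a RefSeq start (GRCm38.p6, the assembly of mm10). The table had such windows for 6 of the 10 genes, 8 windows in all, 3 of them for Nfkb2. The windows were searched on both strands for the general form of the kappaB motif (GGG, any 5 bases, CC) and for a narrower form (GGGA, any base, TT, any base, CC), which was chosen after the sequences had been read. Below, the match to the narrower form is in capitals with 10 bases on each side, printed along the gene's strand.
Nfkbia (chr12:55492657-55492686, minus strand): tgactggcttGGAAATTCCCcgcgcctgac
Bcl3 (chr7:19822734-19822763, minus strand): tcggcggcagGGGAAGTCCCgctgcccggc
Tnip1 (chr11:54962978-54963007, minus strand): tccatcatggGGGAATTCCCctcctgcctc
Nfkb2, first start (chr19:46304688-46304717, plus strand): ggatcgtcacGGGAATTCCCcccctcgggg
Nfkb2, second start (chr19:46305695-46305724, plus strand): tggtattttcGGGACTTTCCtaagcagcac

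Relative to the RefSeq start, the first base of the match stood at position -29 in Nfkbia, -57 in Tnip1, 3 in Bcl3, and -39 and 11 at the first and second starts of Nfkb2. The Nfkb2 starts are numbered among its windows only, which all lie inside the gene span, beginning at 46300994. The match at the second Nfkb2 start also lies in the overlapping window of the last of its starts. The matches of Nfkbia and Bcl3 read as the motif on the opposite strand. The sequences at Tnip1 and the first Nfkb2 start, which are the same 10 letters, read as the motif on both strands.

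Of the 6 genes with a window, 4 held the narrower form, Rela and Birc3 being the exceptions, against 7 of the 35 other pathway genes described below that have a window (20%) and 372 of all 27025 genes with a window (1.38%). Since the form was chosen after the sequences of the 10 genes had been read, these shares support nothing about them. The general form, whose fixed bases are all G or C, was in all 6, against 53.5% of all genes. Median GC content was 65.2% in the 8 windows of these 6 genes and 52.7% over all 32851 windows. Whether the share with the motif follows GC content was not tested. The AP-1 motif TGANTCA and the CCAAT box were each in a window of 1 of the 6 genes, Nfkb2, against 8.97% and 41.1% of all genes. A match of letters is not a measured binding site, and a window without one says only that these letters are not in it.

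No promoter window of these 6 genes overlapped a listed region. Over all windows, 727 of 32851 (2.21%) did. With a share that low, no overlap in 8 windows does not set these 6 genes apart. Their listed regions, where there were any, lay outside the windows read above. For Relb, Nfkb1, Nfkbiz and Ikbkb the table used here had no window, so strand is not stated for them and sides are given by position along the chromosome.

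**Figure D1:**
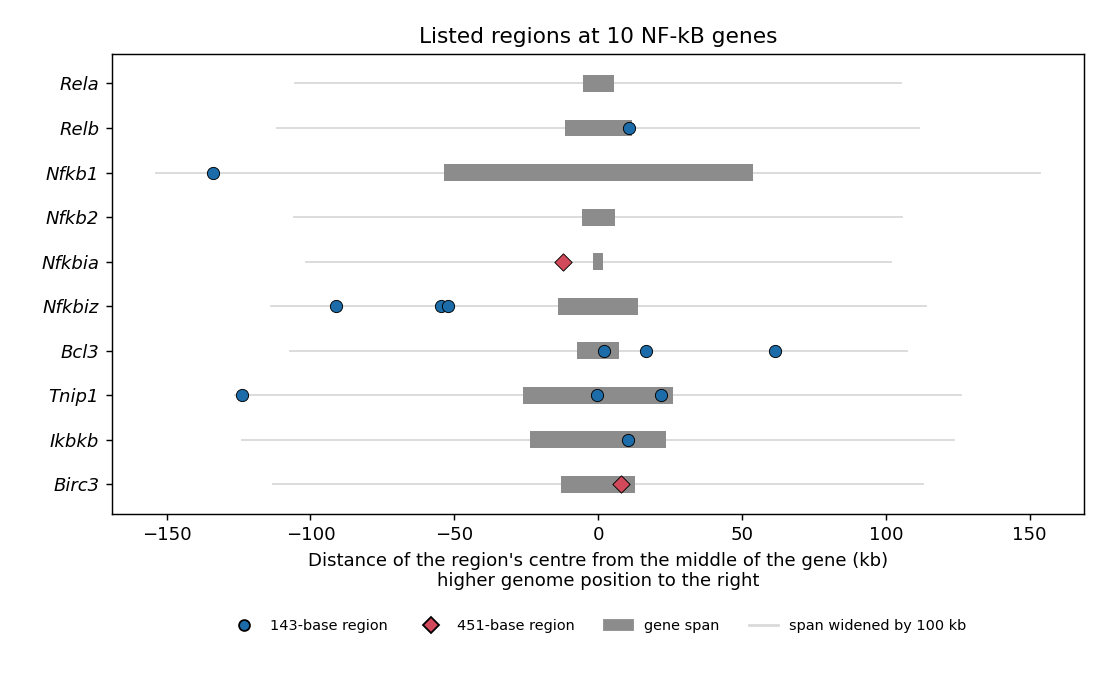
Positions of the listed regions at the 10 genes. Each row is a gene, the grey bar is its span, the thin line the span widened by 100 kb, and the horizontal axis the distance in kb of a region's centre from the middle of the gene. Circles (143 bases) sit at 6 genes and diamonds (451 bases) at Nfkbia and Birc3 only; the rows of Rela and Nfkb2 are empty.

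Of the 4 subunit genes, Relb and Nfkb1 had 1 region each and Rela and Nfkb2 had none. Over all protein-coding genes, 24.8% had 1 region and 57.3% had none. Relb encodes the subunit that pairs with p52 in the non-canonical branch of the pathway. Its gene (chromosome 7, 19606217 to 19629438) had a single 143-base region inside it, at 19628636 to 19628778, centred 0.731 kb from the higher end of the span. The nearest other protein-coding gene was Clptm1, 2.87 kb away.

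Nfkb1 encodes p105, which is processed to the p50 subunit. It is the longest of the 10 genes, at 107 kb (chromosome 3, 135584655 to 135691969). The whole of that span was free of listed regions. Its 1 region, 143 bases wide at 135504347 to 135504489, lay 80.2 kb below the gene and inside the neighbouring gene Manba, which encodes the lysosomal enzyme beta-mannosidase. It is therefore at Nfkb1 by distance only.

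Rela, which encodes the p65 subunit of the canonical dimer, had no region within 100 kb (chromosome 19, 5637442 to 5648134). The nearest, of 143 bases, was 156 kb away. Nfkb2, which encodes p100, the precursor of p52, had none either (chromosome 19, 46300994 to 46312400). Its nearest region, of 143 bases at 46620019 to 46620161, was 308 kb away, inside Wbp1l. Such distances are common in the list. Of the 21887 protein-coding genes, 46.5% were farther from any region than Rela and 29.1% farther than Nfkb2.

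Among the inhibitors and cofactors, Nfkbia encodes IkB-alpha, the classical feedback inhibitor, and is the shortest of the 10 genes at 3.24 kb (chromosome 12, 55489409 to 55492647, minus strand). Its only region was 451 bases wide, at 55478592 to 55479042. It lay 10.6 kb downstream of the gene and 13.8 kb from the RefSeq start, and no annotated gene enclosed it. Nfkbia was the nearest protein-coding gene by a wide margin, the next being Psma6 at 60.4 kb.

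Nfkbiz encodes IkB-zeta, a nuclear cofactor known for its induction by IL-1 and for its part in a second wave of target genes. The gene (chromosome 16, 55811375 to 55838954) held no region, but 3 regions of 143 bases lay on its lower side, at 55733904 to 55734046, 55770341 to 55770483 and 55772761 to 55772903. Their distances from the gene were 77.4, 41.0 and 38.5 kb. The last 2 were centred 2.42 kb apart. Nfkbiz was the nearest protein-coding gene of all 3, the next being Nxpe3 at 106, 69.5 and 67.1 kb, and the nearest annotated genes of any kind were pseudogenes. A further 143-base region at 55632378 to 55632520, beyond the distance rule at 179 kb, also had Nfkbiz as its nearest protein-coding gene. The regions at this gene form an intergenic series on a single side.

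Bcl3 encodes an atypical IkB protein that acts in the nucleus with p50 or p52 homodimers. The gene (chromosome 7, 19808462 to 19822824, minus strand) had 3 regions of 143 bases. The first, at 19817606 to 19817748, was inside Bcl3, 5.08 kb from the RefSeq start, where the lncRNA gene Gm16174 overlaps it. Another, at 19832124 to 19832266, lay 9.37 kb upstream of the gene and inside the lncRNA gene Gm34891. The last, at 19876903 to 19877045, was 54.1 kb upstream and inside Ceacam19, so that it is at Bcl3 by distance only.

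Bcl3 and Relb lie 179 kb apart on chromosome 7 and their windows overlap, but no region was counted for both. The Relb region was the nearest one to Bcl3 outside the distance rule, at 180 kb, and the region inside Bcl3 was likewise the nearest one to Relb outside it, at 188 kb. No listed region lay in the stretch between them.

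Tnip1 encodes ABIN-1, which binds ubiquitin chains and the deubiquitinase A20 and restrains the signal. The gene (chromosome 11, 54910787 to 54962956, minus strand) was the only one of the 10 with more than 1 region inside it. Its regions were all 143 bases wide. One, at 54958568 to 54958710, was 4.30 kb from the RefSeq start, and another, at 54936578 to 54936720, was 26.3 kb from it near the middle of the span. The remaining region, at 54813198 to 54813340, lay 97.5 kb downstream and only 13.6 kb from Lyrm7, its nearest protein-coding gene.

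That Tnip1 region was the closest to the limit of the rule from inside. The closest from outside was a 451-base region 128 kb from Nfkb1, at 135456382 to 135456832 on chromosome 3, inside Ube2d3.

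For the kinase, Ikbkb encodes IKK-beta, the catalytic subunit that phosphorylates IkB-alpha. The gene (chromosome 8, 22659205 to 22706589) had a single 143-base region inside it, at 22693329 to 22693471, 13.2 kb from the higher end of the span. The nearest other protein-coding gene was Polb, 39.9 kb away. The next region outside the rule was 384 kb away, farther than for any other of the 10 genes.

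Birc3 encodes a ubiquitin ligase of the inhibitor of apoptosis family that acts at TNF receptors, and it is a classical NF-kB target. The gene (chromosome 9, 7847468 to 7873205, minus strand) had a 451-base region inside it, at 7867940 to 7868390, 5.04 kb from the higher end of the span, where the gene starts. The neighbouring family member Birc2 was 31.0 kb from that region, so the region was also counted for Birc2 among the other pathway genes below. Birc3 and Nfkbia were the only 2 of the 10 genes with 451-base regions.

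Read over the 10 genes, 8 had at least 1 region by the rule, where 9343 of all 21887 protein-coding genes (42.7%) had one. The genes were chosen with earlier results of these data known, so the count describes them and is given no test. Of the 14 regions, 6 lay inside a gene of the group and 8 outside. A region lay inside the span of 5 of the 10 genes (Relb, Bcl3, Tnip1, Ikbkb and Birc3), where 10.2% of all genes had one inside. Within 10, 25 and 50 kb, the counts were 5, 6 and 7 of the 10 genes, beside 15.2%, 21.1% and 29.7% of all genes. The genes had a median span of 24.5 kb, against 28.8 kb in the 44 other pathway genes described below and 17.2 kb over all protein-coding genes. A longer gene has more room for a region, but whether span bears on these counts was not tested. The median distance to the nearest region was 5.30 kb for the 10 genes and 136 kb over all protein-coding genes. The 5.30 kb is the midpoint between 0 for the 5 genes with a region inside and 10.6 kb for Nfkbia.

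The 10 genes were the nearest protein-coding gene for 11 of the 14 regions. The other 3 were nearest to Manba, Ceacam19 and Lyrm7. Under that stricter reading 7 of the 10 genes kept a region and Nfkb1 lost its only one, beside 16.9% of all genes with a region. The 44 other pathway genes were the nearest protein-coding gene for 16 of their 34 regions. No such share of regions was counted over all genes.

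Nfkbiz, Bcl3 and Tnip1 each had 3 regions and the other 5 genes with any had 1. Over all protein-coding genes, 1636 (7.47%) had at least 3.

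**Figure D2:**
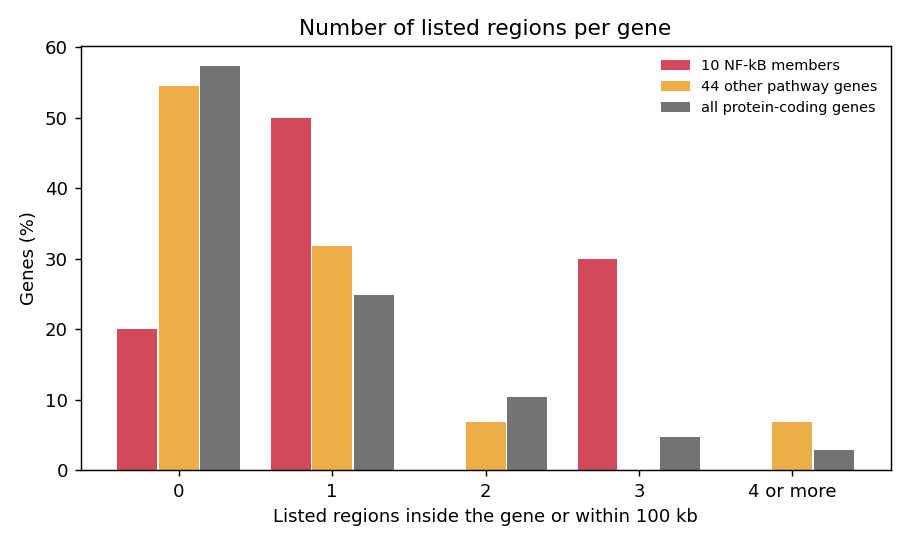
Share of genes (percent, vertical axis) by the number of listed regions inside the gene or within 100 kb, for the 10 genes, 44 other pathway genes and all 21887 protein-coding genes. The bar at 3 regions stands at 30% for the 10 genes, 0% for the other pathway genes and 4.66% for all genes, and at 4 or more regions the shares are 0%, 6.82% and 2.82%.

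Widths at these genes were uneven. Of the 14 regions, 12 were 143 bases wide (85.7%) and 2 were 451 bases wide (14.3%), while the whole list had 49.4% and 50.6%. No gene of the 10 had both widths, but 5 of them had only 1 region and so could not. Of the 44 other pathway genes 4 had both, and the share over all genes was not counted. Counting the 143-base regions alone, 6 of the 10 genes had one, against 29% of all protein-coding genes, and counting the 451-base regions alone, 2 had one, against 19.7%. Since the regions at a gene share its surroundings, the 14 are not independent of each other.

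**Figure D3:**
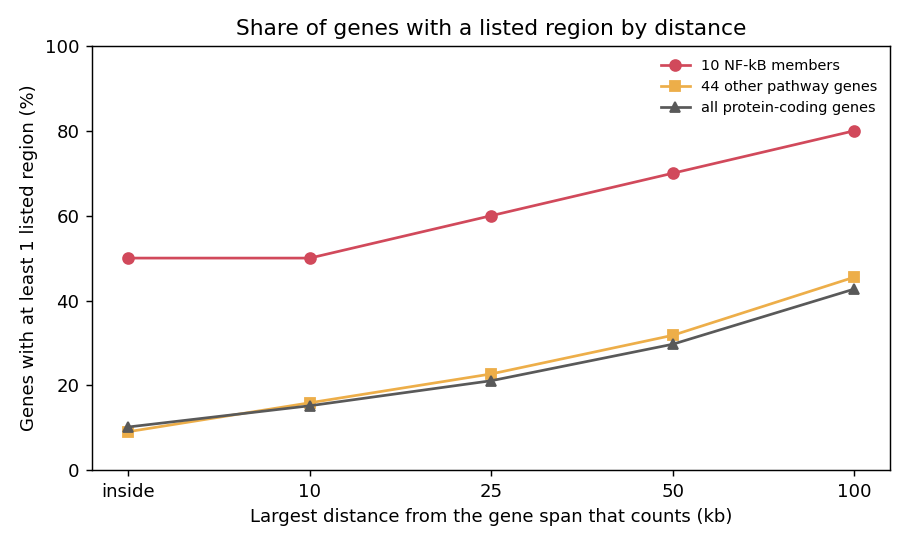
Share of genes with at least 1 listed region (percent, vertical axis) as the largest distance from the gene span that counts is widened from inside the gene to 100 kb (horizontal axis, unevenly spaced steps). The 10 genes run from 50% to 80%, the 44 other pathway genes from 9.09% to 45.5% and all protein-coding genes from 10.2% to 42.7%.

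The other genes of the pathway stood near the level of all genes. Of 44 further subunits, inhibitors, kinases, adaptors and ubiquitin enzymes, 20 had a region within 100 kb (45.5%), beside 42.7% of all protein-coding genes. Inside the gene, 4 of the 44 had one (9.09%), beside 10.2% of all. The median distance to the nearest region was 135 kb in the 44 genes and 136 kb over all genes. Their 34 regions were 16 of 143 bases and 18 of 451 bases, close to the even split of the list. The share among the 10 genes, 80%, was not seen in the pathway taken more widely; the difference was not tested, since the 10 were chosen with results known.

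**Figure D4:**
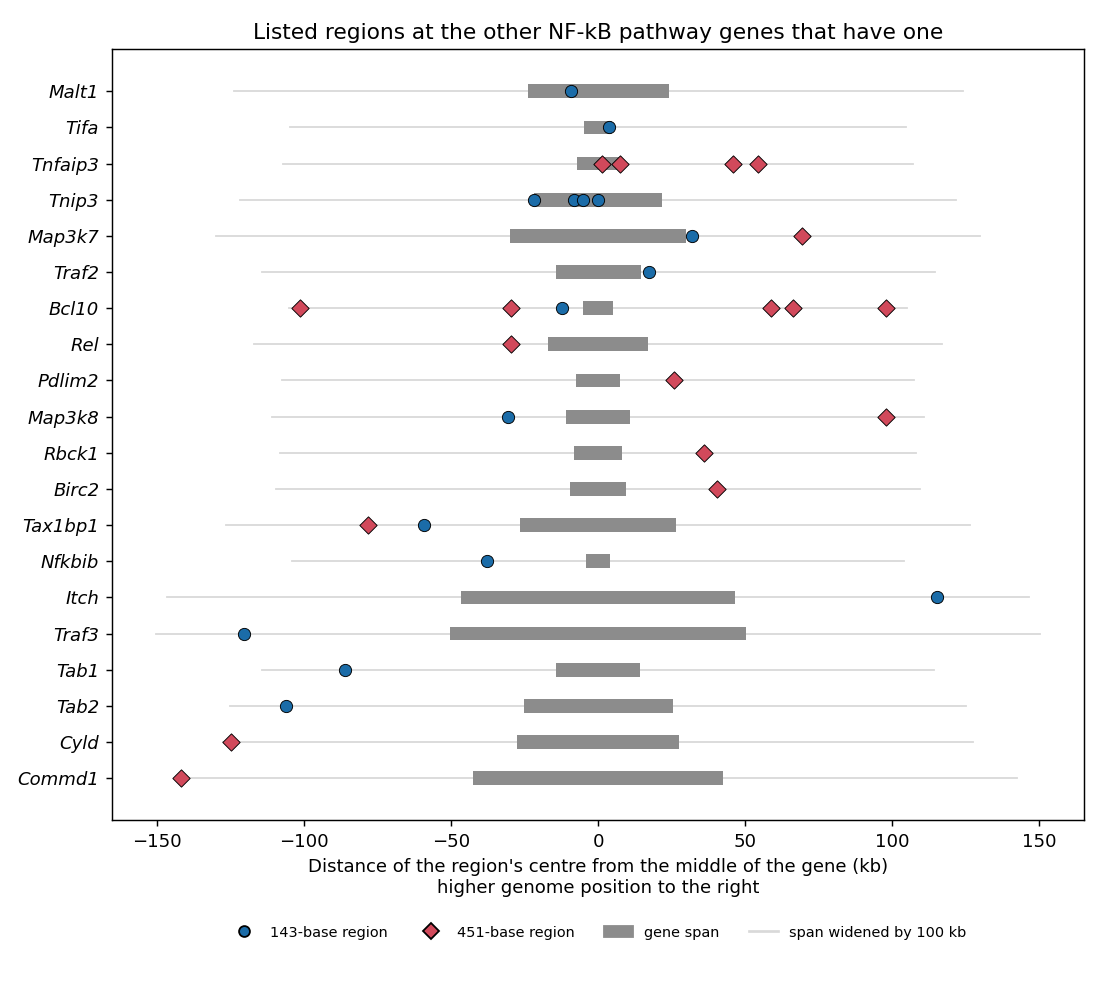
Positions of the listed regions at the 20 other pathway genes that have one, drawn as for the 10 genes, with distance from the middle of the gene in kb on the horizontal axis and the gene closest to a region at the top. Tnip3 has 4 regions of 143 bases and Tnfaip3 has 4 of 451 bases.

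Within this wider set, Rel, the remaining subunit gene, which encodes c-Rel, had a single 451-base region 12.7 kb downstream (chromosome 11, 23723957 to 23724407), inside Pus10. Of the remaining IkB kinase genes, Chuk, which encodes IKK-alpha, had none within 100 kb, the nearest being 124 kb away. Ikbkg, which encodes the regulatory subunit NEMO, had its nearest region 639 kb away, and Map3k14, which encodes the kinase NIK of the non-canonical branch, 1500 kb away. Of all protein-coding genes, 52% were farther from a region than Chuk, 13.5% farther than Ikbkg and 4.32% farther than Map3k14.

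Tnip3 encodes a relative of ABIN-1 that also binds A20. Like Tnip1 it had 143-base regions only, 4 of them, 3 inside the gene and 1 upstream, centred 0.113 kb from its start (chromosome 6, 65590214 to 65590356). That region lies wholly inside the gene's promoter window, which makes its sequence readable. It is printed along the plus strand, with its match to the general kappaB form in capitals, which also reads as the narrower form on the opposite strand.
Tnip3 (chr6:65590214-65590356, plus strand): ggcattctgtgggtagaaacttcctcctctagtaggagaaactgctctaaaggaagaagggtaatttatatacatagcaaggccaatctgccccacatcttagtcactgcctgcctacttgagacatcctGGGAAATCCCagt

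Tnfaip3 encodes A20 itself, the deubiquitinase that Tnip1 and Tnip3 proteins bind. It had 4 regions, all of 451 bases, and the one across its start filled a promoter window. The part of it inside the window is printed along the minus strand, with matches to the general kappaB form on either strand and the single match to TGANTCA in capitals.
Tnfaip3 (chr10:19015361-19015660, minus strand): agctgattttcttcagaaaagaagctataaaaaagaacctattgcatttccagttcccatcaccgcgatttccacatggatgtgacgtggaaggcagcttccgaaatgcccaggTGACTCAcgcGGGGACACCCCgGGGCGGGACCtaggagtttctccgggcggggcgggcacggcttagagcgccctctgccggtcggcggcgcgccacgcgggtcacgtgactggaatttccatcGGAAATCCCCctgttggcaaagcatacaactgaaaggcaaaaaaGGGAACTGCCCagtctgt

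Tnfaip3 and Tnip3 were the only 2 of the 35 other pathway genes with promoter windows where a listed region overlapped one. In each of the 2 genes 1 window was overlapped, among the 54 windows of the 35 genes. Over all 32851 windows 2.21% overlapped a listed region, and the share of genes was not counted. Tnip2, the remaining gene of the ABIN family, had no region within 100 kb, and its nearest was 1250 kb away.

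Signalling genes with a region inside or within 10 kb were Malt1, Tifa, Map3k7, Traf2 and Bcl10. Malt1, the paracaspase, had a 143-base region 14.6 kb inside its nearer end. Tifa, an adaptor that promotes TRAF6 activity, had a 143-base region 0.93 kb inside the higher end of the gene (chromosome 3, 127797393 to 127797535). Map3k7, which encodes the kinase TAK1 upstream of the IkB kinase, had a 143-base region 1.88 kb downstream and a 451-base region 39.3 kb downstream. Traf2, an adaptor of TNF receptors, had a 143-base region 2.70 kb upstream (chromosome 2, 25549565 to 25549707). Bcl10, the partner of Malt1, had 6 regions, the most of the 44 genes, but only the nearest, of 143 bases and 7.25 kb upstream, had Bcl10 as its nearest protein-coding gene. Its other 5 were of 451 bases and nearest to Ddah1 or Syde2.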

How the data were processed

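Per the submitters' processing notes, BWA 0.7.17-r1188, SAMtools, HOMER 4.8 and edgeR were used on build mm10; their order, thresholds and pooling are not given in the sources used here. The deposited list gives genome coordinates and no other value. Starts, counted from 0, were raised by 1. Gene spans and promoter windows came from RefSeq tables of GRCm38.p6; spans carry no exons, so exons and introns were not told apart. The nearest gene of a region is the shortest protein-coding gene enclosing its centre, otherwise the closest. All 21887 protein-coding genes were counted by the same rule, with Python 3.11.15 and pandas 2.3.3; on simulated positions a plain recount was equal for 300 of 300 genes. A place matching a motif on both strands was counted once. The genes, lists and motifs were chosen with earlier results of these data known. Named genes are the 10 genes, the nearest genes of their regions, pathway genes with a region inside or within 10 kb, and Tnfaip3, Rel, Chuk, Ikbkg and Map3k14; Birc2, Tnip2 and genes named beside a distance were added after positions were seen. Alternatives changed the distance, assignment, widths, merging and motif. The planned tests between groups did not apply, since the list has no value per library.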

Additional observations from a re-analysis of the deposited data

How the results depend on the processing

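No paired analysis was possible because values per library are missing from the list, and for the same reason no library could be left out. The 8 genes of 10 with a region became 7 at 50 kb, 6 at 25 kb, and 5 both at 10 kb and inside the gene; 451-base regions alone left 2 and 143-base regions alone 6. The 14 regions became 8 at 25 kb, 7 at 10 kb, 6 inside the genes and 2 with 451-base regions alone. The 20 of 44 other pathway genes became 10 at 25 kb (22.7%, beside 21.1% of all genes), 7 at 10 kb (15.9%, beside 15.2%) and 4 inside (9.09%, beside 10.2%). By nearest gene they became 9 (20.5%, beside 16.9%). Alone, 451-base regions left 11 (25%, beside 19.7%) and 143-base regions 13 (29.5%, beside 29%). Each of these settings admits fewer regions by construction. Placing regions by any overlap, or merging those within 1 kb, gave 8 genes, 14 regions and 20 pathway genes. The kappaB motif was in 8 of the 8 promoter windows, which cover 6 of the 10 genes. With GGA in place of its GGG it was in 7, and with the narrower form, chosen after seeing the data, in 6. Over all windows the shares of these 3 forms were 50.8%, 48.3% and 1.20%. Depth is unknown, and regions just short of the authors' threshold do not appear in the list.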

Other observations

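The 727 promoter windows that overlap a listed region allow the motifs to be read beyond the 10 genes. They include 1 window each of Tnip3 and Tnfaip3, from which the sequences printed above were taken. The AP-1 motif TGANTCA was in 23 of the 133 windows overlapped by a 143-base region (17.3%) and in 23 of the 594 overlapped by a 451-base region (3.87%), beside 7.81% of all 32851 windows. The narrower kappaB form (GGGA, any base, TT, any base, CC) was in 3 of the 133 (2.26%) and 4 of the 594 (0.673%), beside 1.20% of all windows. These counts are small, and the Tnip3 window is among the 3. The general kappaB form ordered the widths the other way. It was in 80 of the 133 (60.2%) and 406 of the 594 (68.4%), beside 50.8% of all windows. With GGA in place of its GGG the shares were 50.4% and 58.6%, beside 48.3%. Median GC content was 59.3% in windows overlapped by a 143-base region, 62.7% in those overlapped by a 451-base region, and 52.7% over all windows. Whole windows were read, so a match can lie outside the part that a region covers. Windows of the same gene can overlap and a region can touch several, so they are not independent, and no test was run. The windows were read after the data were seen.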
